A study of Mus musculus with 2 samples.

Results

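The secreted side of the Wnt pathway was followed in single-cell RNA sequencing (scRNAseq) of the rib repair callus at 4 days post injury. It was represented by 10 genes, chosen by name from the 31054 features of the deposited matrices with earlier results of these data known. They were the ligands *Wnt5a* and *Wnt11*, the agonist *Rspo3*, and the antagonists or modulators *Sfrp1*, *Sfrp2*, *Sfrp4*, *Frzb*, *Dkk2*, *Dkk3* and *Wif1*. The calluses came from control mice (Sox9:CreER;R26:tdT;Smof/+) and *Smo* cKO mice (Sox9:CreER;R26:tdT;Smof/f), taken 4 days after a large-scale rib resection. All animals had received tamoxifen before surgery, and all carried the Sox9-driven CreER and the tdTomato reporter, so that control cells that recombined also lost 1 *Smo* allele. Recombination was limited to cells that expressed *Sox9* when tamoxifen was given, so each library mixes recombined and unrecombined cells. Calluses of 3 animals were pooled for each genotype and made into 1 library, so no value below has a replicate and no test compared the genotypes.

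Wnt proteins are secreted, lipid-modified ligands that bind Frizzled receptors. With an Lrp co-receptor they stabilize beta-catenin, which acts with TCF/LEF factors in the nucleus, while Wnt5a and Wnt11 are best known for signaling without beta-catenin, through Ror and Ryk receptors. Sfrp proteins, Frzb and Wif1 bind the ligands outside the cell, Dkk2 occupies the Lrp co-receptor, and R-spondins such as Rspo3 act through Lgr receptors to keep Frizzled receptors at the surface. In bone, beta-catenin signaling favors the osteoblast fate, and the secreted antagonists hold it in check. *Smo* encodes the transducer of the Hedgehog signal, whose response genes include *Gli1* and *Ptch1*.

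Both libraries were deep, with 105367110 UMIs (unique molecular identifiers, each standing for 1 captured transcript) over 10747 barcodes in the control and 112700220 UMIs over 10512 barcodes in the *Smo* cKO. After the filters, 10057 and 9507 cells remained, with medians of 8367 and 9092 UMIs. Of all barcodes, 613 occurred in both libraries. Where both copies were kept, 480 of 599 pairs (80.1%) had the same cell class, against 44.8% over all pairs of cells, and the median ratio of depth within a pair was 59.5. Connective cells with such a barcode held 4.89% to 8.76% of each gene's connective UMIs in the control and 5.96% to 17.4% in the *Smo* cKO. Ratios were therefore also computed without these barcodes, which moved none of the 10 genes across 1.5-fold in connective cells.

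Cells were assigned to classes by marker lists that held none of the 10 genes. These lists were chosen with earlier results of these data known, so levels by group are not independent of those results. Of control cells 6854 (68.2%) were connective, against 5721 (60.2%) of *Smo* cKO cells, while hematopoietic cells numbered 2131 (21.2%) and 2593 (27.3%). Within the connective class, cells with the highest score for *Eln*, *Col14a1* and related genes were 25.97% and 13.0%. Cells scored by *Tnc*, *Inhba* and related genes were 43.7% and 53.5%. Cells scored by *Fmod*, *Acan*, *Col11a1* and related genes were 6.29% and 4.58%, while 84 and 126 cells were gated on *Tnmd* and *Scx* with other tendon genes. The groups are named by these genes. *Col1a1*, *Cthrc1*, *Sfrp1* and *Col1a2*, itself a marker of the connective gate, were among the genes that led the connective class by fold. The gate on osteoblast genes took only 17 and 24 cells, and its values are not described.

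*Smo* itself was at 19.1 CPM (UMIs per 1000000 UMIs) in control connective cells, against 12.3 CPM in those of the *Smo* cKO. Which exons are floxed and which end of the transcripts the reads cover are not given in the sources used here, so this level is no check of the deletion. *Gli1* was read by 64 and 57 UMIs, and *Ptch1* was at 12.6 and 10.7 CPM. The reporter TdTomato was found in 49 and 125 connective cells.

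RefSeq promoter windows (build GRCm38.p6) were at hand for 5 of the 10 genes. The bases before the annotated gene, 250 or for *Wif1* 206, were searched by letters on both strands. The letters were the GLI motif GACCACCCA, the TCF/LEF motifs CTTTGA and CTTTGT, and TATAAA. The *Frzb* window had only 21 bases before the gene and a second *Wnt11* window 0, so these were not searched. The bases before the annotated start are shown for *Wif1*, *Sfrp2*, *Dkk2* and *Wnt11*, the 4 genes with a window that was searched. All 4 lie on the plus strand and capitals mark the matches.

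*Wif1*, chr10:121033754-121033959: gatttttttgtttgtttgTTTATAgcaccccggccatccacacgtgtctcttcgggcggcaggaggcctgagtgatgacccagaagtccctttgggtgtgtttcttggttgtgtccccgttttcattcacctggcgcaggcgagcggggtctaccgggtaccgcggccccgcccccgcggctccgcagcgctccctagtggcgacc
*Sfrp2*, chr3:83766071-83766320: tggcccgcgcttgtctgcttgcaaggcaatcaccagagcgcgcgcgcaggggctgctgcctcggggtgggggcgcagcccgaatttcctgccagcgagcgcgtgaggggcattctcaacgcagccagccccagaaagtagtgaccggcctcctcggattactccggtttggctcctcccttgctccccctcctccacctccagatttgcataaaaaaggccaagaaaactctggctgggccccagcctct
*Dkk2*, chr3:132085042-132085291: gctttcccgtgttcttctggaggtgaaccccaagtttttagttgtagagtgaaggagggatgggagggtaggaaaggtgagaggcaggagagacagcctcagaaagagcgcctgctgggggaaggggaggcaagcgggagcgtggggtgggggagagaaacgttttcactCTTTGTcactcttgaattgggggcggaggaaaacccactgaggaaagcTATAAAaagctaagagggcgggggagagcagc
*Wnt11*, chr7:98834862-98835111: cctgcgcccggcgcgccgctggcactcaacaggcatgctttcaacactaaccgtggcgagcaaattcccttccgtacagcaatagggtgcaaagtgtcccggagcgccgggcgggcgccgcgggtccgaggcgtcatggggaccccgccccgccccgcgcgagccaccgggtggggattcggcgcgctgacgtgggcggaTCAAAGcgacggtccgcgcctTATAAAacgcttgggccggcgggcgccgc

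The GLI letters were in none of the 4 windows, and in 0.225% of all 32851 windows of 250 bases. TATAAA began 32 bases before the *Dkk2* gene and 29 bases before the *Wnt11* gene, the usual place of a TATA box, and its reverse letters lay further upstream in *Wif1*. It was in 12.4% of all windows. A CTTTGT was in the *Dkk2* window and the reverse letters of CTTTGA in that of *Wnt11*, against 16.5% and 13.8% of all windows. The *Sfrp2* window held none of the letters searched. G and C made up 70.8% of the *Wnt11* window, 63.6% of *Sfrp2*, 61.7% of *Wif1* and 55.6% of *Dkk2*, against a median of 52.4% over all windows. Such matches are descriptions of letters and no evidence of binding.

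The first question was which callus cells held the transcripts. Between 89.4% and 98.3% of each gene's UMIs in each library came from connective cells. These cells also held most UMIs of all genes, 89171904 of 104189394 in the control and 89413912 of 110863278 in the *Smo* cKO. The lowest shares were those of *Rspo3* in the *Smo* cKO (89.4%) and *Wif1* in the control (91.1%). Among classes of at least 50 cells, *Wnt5a*, *Sfrp1*, *Sfrp2*, *Sfrp4*, *Frzb* and *Dkk3* were highest in connective cells in both libraries. For *Rspo3* the top value was in endothelial cells in both, for *Wif1* in muscle cells in both (2.96 and 3.32 CPM on 4 and 9 UMIs), and for *Dkk2* in endothelial cells in the control. Apart from *Rspo3* in the *Smo* cKO and *Wif1* in the control, these values had intervals that held the connective level. For *Wnt11* the top classes were T or NK cells and dendritic cells, on 2 UMIs each, so that no order can be read from it.

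The hematopoietic cells should lack most of these genes, and their UMIs served as a background level, whose source (free RNA, mixed droplets) was not tested. It was 13.5 CPM in both libraries for *Sfrp1*, 15.8 and 17.0 CPM for *Sfrp2*, and 13.6 and 19.5 CPM for *Sfrp4*. It was not even across classes, since the 129 erythroid cells of the *Smo* cKO had 72.1 CPM of *Sfrp2* and 60.5 CPM of *Sfrp4*. At unthinned depth 4.599% and 4.86% of hematopoietic cells (medians of 2577 and 3216 UMIs) held an *Sfrp1* UMI, against 55.8% and 53.0% of connective cells (medians of 11005 and 13783 UMIs). With each cell thinned to 2000 UMIs, which kept 6387 and 5434 connective cells, the shares were 1.99% and 2.42% in hematopoietic cells and 29.8% and 25.95% in connective cells. *Wif1* had 0 and 1 UMIs in hematopoietic cells, and *Rspo3* 4 and 3.

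**Figure D1:**
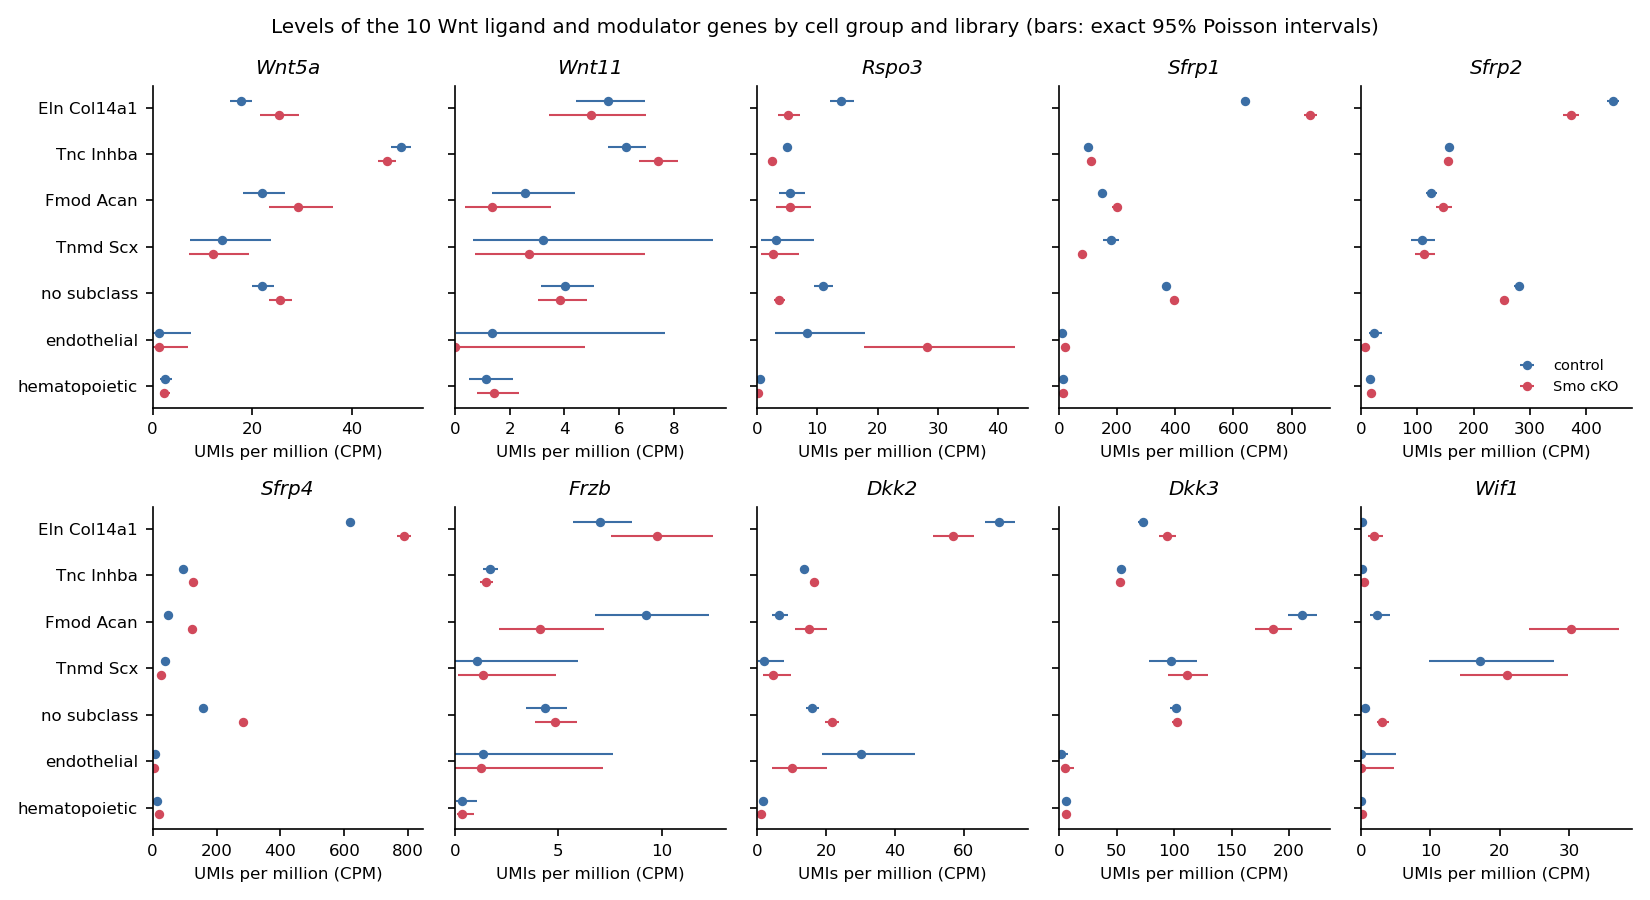
Level of each of the 10 genes in CPM (x axis, from 0, own scale for each gene) in 5 groups of connective cells, in endothelial and in hematopoietic cells (y axis), in the control (blue) and *Smo* cKO (red) library. Points are pooled values with exact 95% Poisson bars, and a reader sees *Sfrp1*, *Sfrp2*, *Sfrp4* and *Dkk2* peaking in *Eln* *Col14a1* cells, *Wnt5a* in *Tnc* *Inhba* cells and *Dkk3* in *Fmod* *Acan* cells in both libraries.

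*Wnt5a* (ENSMUSG00000021994, chr14:28504750-28527448, plus strand) was a gene of the *Tnc* *Inhba* cells. It was at 49.7 CPM (95% Poisson interval 47.8 to 51.7) in those of the control and 47.0 CPM (45.2 to 48.7) in those of the *Smo* cKO. In *Eln* *Col14a1* cells it was at 17.7 CPM (15.6 to 20.03) and 25.3 CPM (21.6 to 29.4). The *Tnc* *Inhba* cells thus stood above every other connective group in both libraries, and they held 75.1% and 75.5% of all *Wnt5a* UMIs. Part of this is depth, since they held 50983531 of 104189394 UMIs of all genes in the control and 58579866 of 110863278 in the *Smo* cKO. Intervals here and below cover counting error only. Outside connective tissue, the 13 and 23 epithelial or mesothelial cells had 44.8 CPM (16.4 to 97.6) and 46.1 CPM (25.2 to 77.4) on 6 and 14 UMIs, which overlaps the *Tnc* *Inhba* level. The mural cells, which surround vessels, had 17.0 and 29.5 CPM on 6 and 10 UMIs.

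*Wnt11* (ENSMUSG00000015957, chr7:98835112-98855195, plus strand; promoter shown above) was sparse. It was highest in *Tnc* *Inhba* cells, with 6.24 CPM (5.57 to 6.96) for control and 7.39 CPM (6.71 to 8.12) for *Smo* cKO cells. Control *Eln* *Col14a1* cells, at 5.58 CPM (4.42 to 6.94), could not be told from these by counting error, while *Fmod* *Acan* *Col11a1* cells were lower at 2.55 and 1.37 CPM on 13 and 4 UMIs.

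*Rspo3* (ENSMUSG00000019880, chr10:29452416-29535867, minus strand) was at 14.0 CPM (12.1 to 16.1) in control *Eln* *Col14a1* cells, the top value among connective groups, though it overlapped the 10.98 CPM (9.49 to 12.6) of control cells outside every group. In those of the *Smo* cKO it was at 5.12 CPM (3.54 to 7.15), and this no longer stood apart from the 5.50 CPM (3.14 to 8.93) of *Fmod* *Acan* *Col11a1* cells. Endothelial cells held it too. They had 6 UMIs in 3 of 66 control cells (8.25 CPM, 3.03 to 18.0) and 22 UMIs in 9 of 68 *Smo* cKO cells (28.2 CPM, 17.7 to 42.8), a log2 ratio of 1.78 (0.43 to 3.37). The endothelial value was thus on the higher side in the *Smo* cKO library and the connective value on the lower side, on few endothelial cells.

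*Sfrp1*, *Sfrp4* and *Sfrp2* were all highest in *Eln* *Col14a1* cells. *Sfrp1* (ENSMUSG00000031548, chr8:23411502-23449632, plus strand) was at 638 CPM (625 to 651) in control *Eln* *Col14a1* cells and 865 CPM (843 to 887) in *Smo* cKO ones. Its level in *Tnc* *Inhba* cells was 99.4 CPM (96.7 to 102) and 111 CPM (108 to 114). *Sfrp4* (ENSMUSG00000021319, chr13:19623104-19632994, plus strand) was at 617 and 785 CPM in *Eln* *Col14a1* cells and 94.9 and 127 CPM in *Tnc* *Inhba* cells. Both were thus several times higher in the first group than in the second. *Sfrp2* (ENSMUSG00000027996, chr3:83766321-83774316, plus strand) followed with a shallower slope, at 447 and 373 CPM against 156 and 154 CPM.

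*Frzb*, also known as Sfrp3 (ENSMUSG00000027004, chr2:80411970-80447625, minus strand), was likewise lower in *Tnc* *Inhba* cells (1.71 and 1.502 CPM) than in *Eln* *Col14a1* cells. In the control it was at 9.24 CPM (6.79 to 12.3) in *Fmod* *Acan* *Col11a1* cells and 7.04 CPM (5.74 to 8.56) in *Eln* *Col14a1* cells, which overlap. In the *Smo* cKO the former were lower, at 4.12 CPM (2.13 to 7.20) on 12 UMIs, against 9.78 CPM (7.55 to 12.5) in the latter.

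The 2 Dkk genes peaked in different connective groups, though both were found in *Eln* *Col14a1* cells. *Dkk2* (ENSMUSG00000028031, chr3:132085292-132180304, plus strand) was at 70.3 CPM (66.0 to 74.8) and 56.8 CPM (51.2 to 62.8) in *Eln* *Col14a1* cells, and at 13.5 and 16.5 CPM in *Tnc* *Inhba* cells. Endothelial cells had 30.3 CPM (19.0 to 45.8) in the control, from 22 UMIs in 14 cells, and 10.3 CPM (4.43 to 20.2) in the *Smo* cKO, from 8 UMIs in 7 cells. *Dkk3* (ENSMUSG00000030772, chr7:112116017-112159057, minus strand), a relative that does not act on the Lrp co-receptor as the other Dkk proteins do, was instead highest in *Fmod* *Acan* *Col11a1* cells. There it was at 211 CPM (199 to 224) and 186 CPM (171 to 202), against 72.9 and 94.2 CPM in *Eln* *Col14a1* cells.

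*Wif1* (ENSMUSG00000020218, chr10:121033960-121100650, plus strand) was the rarest of the 10. In the control its highest level among the larger groups was 17.2 CPM (9.81 to 27.9) in *Tnmd* *Scx* cells, where the *Smo* cKO had 21.0 CPM (14.3 to 29.8). In *Fmod* *Acan* *Col11a1* cells it was at 2.36 CPM (1.22 to 4.12) for control cells and 30.2 CPM (24.2 to 37.2) for *Smo* cKO cells. In the *Tnmd* *Scx* cells the log2 ratio was 0.29 (-0.62 to 1.26). The high value of the *Fmod* *Acan* *Col11a1* cells came from few of them, since 7 of the 262 cells held 71 of the 88 UMIs, and the gene was detected in 10 control and 19 *Smo* cKO cells. A counting interval does not cover this spread between cells.

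Whether the genes sat in the same cells was asked of all connective cells together, thinned to 2000 UMIs in 1 random draw. In the control, 54.6% of cells with a *Dkk2* UMI also had an *Sfrp1* UMI (95% Clopper-Pearson interval 48.8 to 60.4), against 28.5% of cells without *Dkk2*. In the *Smo* cKO these shares were 43.9% (37.3 to 50.6) and 25.2%. *Sfrp4* was found in 37.8% of control cells with *Sfrp1* and 17.9% of those without, and in 45.8% and 15.4% in the *Smo* cKO. *Wnt5a* went the other way in the control, where *Sfrp1* was found in 20.7% (16.8 to 25.2) of cells with *Wnt5a* and 30.3% of cells without. In the *Smo* cKO the corresponding shares of 21.9% (17.6 to 26.6) and 26.2% overlapped. Cells still differ in how much of their depth connective transcripts take, and the part of this in the shared detection was not tested. The connective groups were also pooled here, though they differ in level. At this depth *Sfrp1* was found in 53.9% of control *Eln* *Col14a1* cells and 14.1% of control *Tnc* *Inhba* cells. The pooled shares therefore do not show whether genes share cells within a group, which was not tested.

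**Figure D2:**
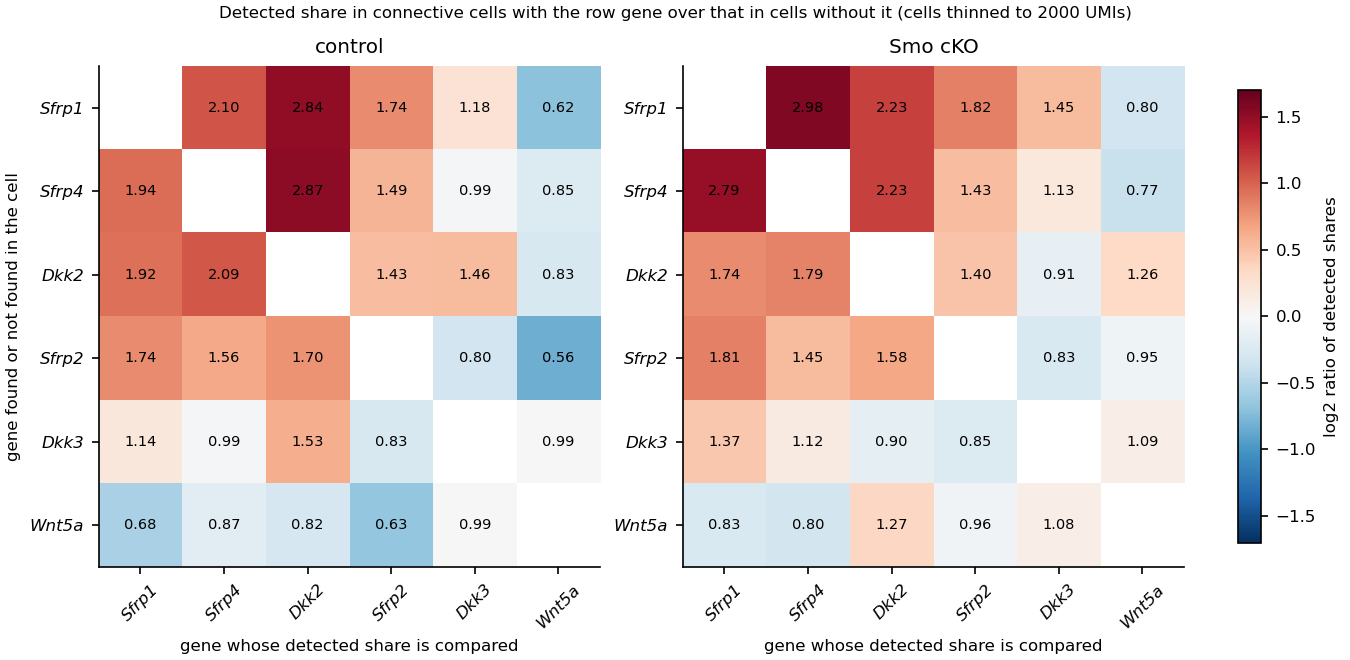
Share of connective cells with a UMI of the column gene among cells with the row gene, divided by the share among cells without it (number and color, log2 color scale), for 6 members in the control (left) and the *Smo* cKO (right), all cells thinned to 2000 UMIs. *Sfrp1*, *Sfrp4*, *Dkk2* and *Sfrp2* have ratios from 1.40 to 2.98 with each other in both libraries, while *Sfrp1* cells of the control hold *Wnt5a* at 0.62 times the share of other cells. All connective groups are pooled.

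As a description of likeness, log2(CPM + 1) was correlated across 31 combinations of cell group and library, which share libraries, depth and cells. Among the members, *Sfrp1* was most like *Sfrp2* (Pearson r 0.86, Spearman rho 0.79), *Sfrp4* (0.85 and 0.68) and *Dkk3* (0.84 and 0.76), and *Wnt11* was least like the rest. Of 12347 other genes, the closest to *Sfrp1* were *Nfasc*, *Cpz* and *Slc16a4* (r 0.89 to 0.92), to *Sfrp2* *Cilp*, *Fam171b* and *P4ha3* (0.86 to 0.87), and to *Sfrp4* *Pgr*, *Vstm2b* and *Tnfaip6* (0.86 to 0.90). The closest to *Wnt5a* were *Gpr153*, *Fbln1* and *Pcolce* (r 0.90), and to *Dkk3* *Col1a1*, *Sod3* and *Gpx3* (0.90 to 0.91). *Wif1* was followed by *C1qtnf3*, *Cyp26a1* and *Adh7* (0.82 to 0.84), and *Rspo3* by *Zfp979*, *Smad1* and *Ace* (0.80 to 0.85). *Wnt11* (*Sfxn5*, *Hsd17b7*, *Amigo3*), *Frzb* (*Emx2os*, *Pcdh9*, *Hrasls*) and *Dkk2* (*Wdr66*, *Gdf10*, *Ly6c1*) had looser neighbors, at r from 0.69 to 0.81.

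The second question was how the genes differed between the genotypes in connective cells. In these 2 libraries, *Wif1* was higher and *Rspo3* lower in the *Smo* cKO, and the other 8 genes lay within 1.5-fold. *Wif1* was read by 51 UMIs in control cells (0.572 CPM) and 218 UMIs in *Smo* cKO cells (2.44 CPM), which gives a log2 ratio of 2.09 (1.65 to 2.56 by counting error). *Rspo3* had 681 UMIs (7.64 CPM) and 277 UMIs (3.10 CPM), which gives -1.30 (-1.51 to -1.10). Of 13929 genes ranked by ratio, *Wif1* was the 52nd from the top and *Rspo3* the 78th from the bottom. Among 13931 genes with at least 50 UMIs, 4.98% passed 1.5-fold upward and 4.1% downward in the *Smo* cKO library. Across the class, the median log2 ratio was -0.07 over the 10 genes and 0.01 over all.

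The other 8 ratios were small. *Wnt5a* (37.1 and 39.5 CPM) and *Wnt11* (5.44 and 6.14 CPM) had log2 ratios of 0.09 (0.02 to 0.16) and 0.17 (-0.004 to 0.35). *Sfrp1* (243 and 232 CPM), *Sfrp2* (225 and 191 CPM) and *Sfrp4* (188 and 208 CPM) were at -0.07, -0.24 and 0.15. *Frzb* (3.52 and 3.00 CPM), *Dkk2* (22.6 and 20.4 CPM) and *Dkk3* (75.9 and 72.4 CPM) were at -0.23, -0.15 and -0.07. Since the share of *Eln* *Col14a1* cells was lower in the *Smo* cKO, levels of the genes that peak in them also carry this difference in makeup.

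To hold the makeup fixed, the connective groups of the *Smo* cKO were weighted by their shares of UMIs in the control. *Sfrp4* then had a log2 ratio of 0.48 (0.45 to 0.51) in place of 0.15, and *Sfrp1* 0.27 (0.25 to 0.30) in place of -0.07. *Sfrp2* remained below 0 at -0.12. *Wif1* was at 2.44 and *Rspo3* at -1.18, and *Wnt5a*, *Wnt11*, *Frzb*, *Dkk2* and *Dkk3* lay between 0.03 and 0.12. Again 1 gene was past 1.5-fold in each direction, against 5.48% of all genes higher and 3.19% lower on this scale.

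**Figure D3:**
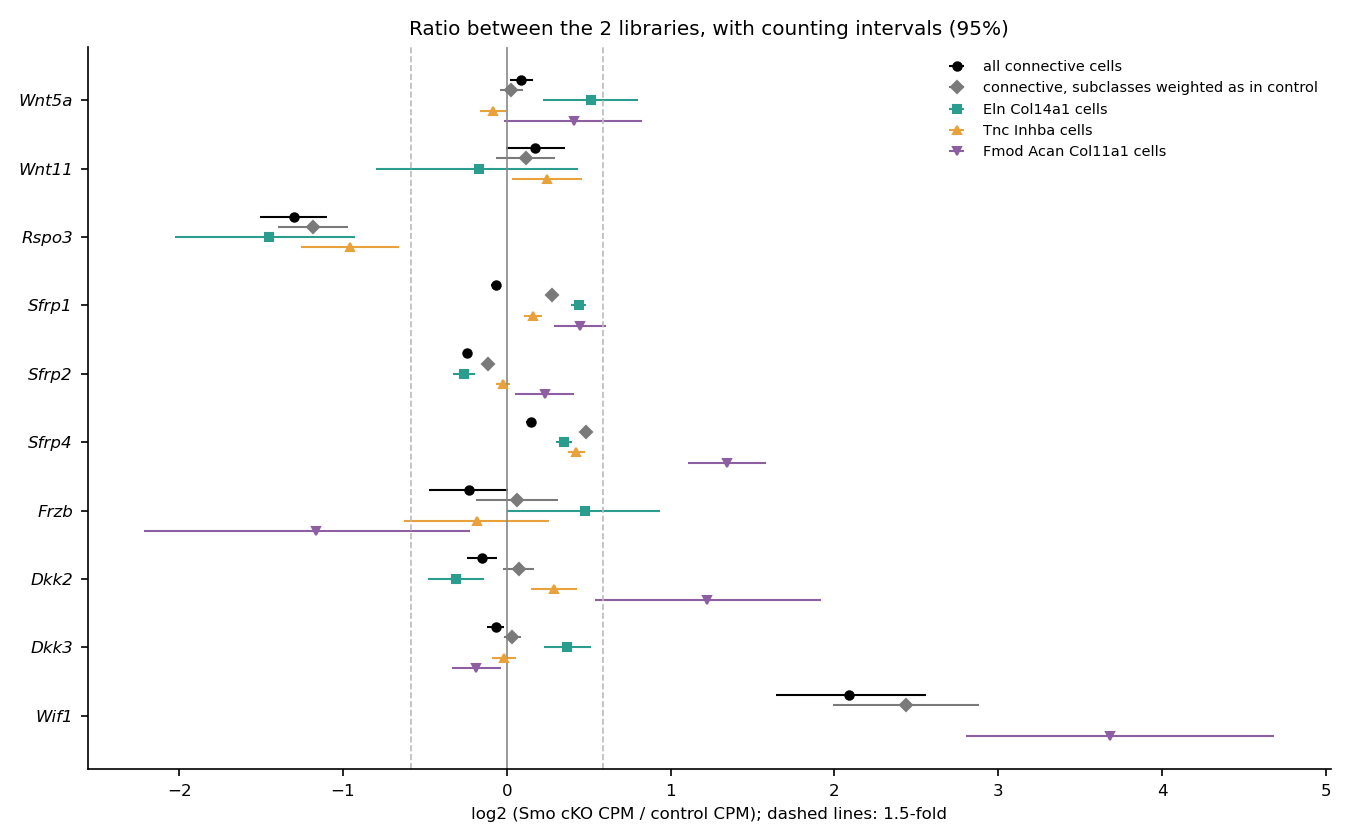
Log2 ratio of *Smo* cKO to control CPM (x axis) for each of the 10 genes (y axis) in all connective cells, in connective cells weighted to the makeup of the control, and in 3 connective groups, with 95% counting intervals; dashed lines mark 1.5-fold and values on under 50 UMIs are left out. *Rspo3* lies left of the line in 4 of 4 values shown and *Wif1* right of it in 3 of 3, while *Frzb*, *Dkk2* and *Dkk3* scatter to both sides of 0.

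Within *Eln* *Col14a1* cells, *Rspo3* was lower in the *Smo* cKO (201 and 34 UMIs, log2 ratio -1.45, interval -2.02 to -0.92). It was the 1 of 9 counted members past 1.5-fold lower there, with none higher, against 4.02% of all genes lower and 11.4% higher. The median of all genes in these cells was 0.12, so ratios were also centered on it. *Sfrp1* was then at 0.32 in place of 0.44, *Sfrp4* at 0.23 in place of 0.35, and *Sfrp2* at -0.38 in place of -0.26. The thinned detected share of *Sfrp2* was 45.5% and 32.7%, while that of *Sfrp1* was 53.9% and 62.4%. These relatives thus differed in opposite directions between the libraries in this connective group.

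Within *Tnc* *Inhba* cells, *Rspo3* was again the 1 of 9 counted members that was past the fold lower, and none was higher, against 3.02% and 5.12% of all genes. It was read by 255 UMIs in control and 151 in *Smo* cKO cells (log2 ratio -0.96, -1.26 to -0.66). *Sfrp4* was at 0.43 (0.37 to 0.48) and *Sfrp2* at -0.02. Cells outside every connective group repeated the lower *Rspo3*, at 10.98 CPM in control cells and 3.64 CPM in *Smo* cKO cells (log2 ratio -1.59, -2.005 to -1.19). In these cells *Sfrp4* (157 and 281 CPM, 0.84) and *Wif1* (11 and 60 UMIs, 2.31) were past 1.5-fold higher.

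*Fmod* *Acan* *Col11a1* cells stood out, although they numbered only 431 and 262. Of 8 counted members, *Wif1* (log2 ratio 3.68, 2.80 to 4.69), *Sfrp4* (1.34, 1.11 to 1.59) and *Dkk2* (1.22, 0.54 to 1.92) were past 1.5-fold higher. For *Wif1* this ratio rests on the 7 cells with most of its UMIs and does not describe the whole group. *Frzb* was past it lower (-1.16, -2.21 to -0.23). The background was 5.24% of genes higher and 5.35% lower. *Sfrp4* was at 48.1 and 122 CPM, and *Dkk2* had 33 and 44 UMIs. Cells with 5 or more *Sfrp4* UMIs numbered 9 in the control and held 61 of 245 UMIs. In the *Smo* cKO they numbered 19 and held 230 of 356 UMIs, so the size of the *Sfrp4* ratio also rests largely on few cells. At 2000 UMIs its expected detected shares over all draws were 8.19% in control and 14.9% in *Smo* cKO cells of this group. Of the 693 cells of this group, 327 led the next connective group by less than 0.2 in relative marker score, the lead of the stricter gate. *Frzb* and *Dkk2* fell under 50 UMIs with a stricter gate and were not counted there. *Rspo3* had 28 and 16 UMIs in these cells, at 5.50 CPM in both libraries.

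*Sfrp1* was lower in the *Tnmd* *Scx* cells of the *Smo* cKO, at 178 CPM (152 to 207) against 78.0 CPM (64.4 to 93.6), from 166 and 115 UMIs. The unthinned detected shares were close, at 40.5% and 39.7%, and 12 control cells held 116 of the 166 UMIs, so the control level rests largely on few cells. Thinned to 5000 UMIs, the difference in detected share was -4.39 points (-17.98 to 8.68) in 1 random draw. Over all draws at this depth the expected shares were 34.6% and 25.5%. Thinned to 1000 UMIs, the draw gave -9.90 points (-19.6 to -1.73). Over all draws at 1000 UMIs the expected shares were 12.4% and 7.59%, a smaller difference of -4.77 points. *Sfrp2* did not differ there beyond counting error, at 108 and 112 CPM.

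The UMIs of *Wif1* came from few cells. In the control, 36 connective cells held it, 27 of them with 1 UMI, and the most in a cell was 6. In the *Smo* cKO, 76 cells held it, and 13 cells with 5 or more UMIs carried 125 of the 218 UMIs. Of these 13, 7 were *Fmod* *Acan* *Col11a1* cells and 2 were *Tnmd* *Scx* cells. The 5 cells with most UMIs held 31.4% and 33.0% of the connective total. Without them the log2 ratio was 2.06, and without the barcodes that occurred in both libraries it was 2.22. Among connective cells with a TdTomato UMI, *Wif1* had 2 UMIs in 2 of 49 control cells and 31 UMIs in 4 of 125 *Smo* cKO cells. These cells were deeper than the rest, with medians of 13826 and 19839 UMIs against 10976 and 13638.5.

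*Rspo3* was spread thinly over many cells. It was found in 518 control and 232 *Smo* cKO connective cells, of which 410 and 201 held 1 UMI, and the top 5 cells held 4.11% and 6.86%. At 2000 UMIs per cell the detected share was 1.93% against 0.66%, which is -1.26 points (-1.67 to -0.86 by Newcombe's method). Its log2 ratio was -1.25 without the shared barcodes. *Wif1* at this depth was found in 0.14% and 0.39%, a difference of 0.25 points (0.06 to 0.46). *Sfrp1* (29.8% and 25.95%) and *Sfrp2* (29.97% and 25.5%) were found less widely in the *Smo* cKO at equal depth, all connective groups pooled. These shares also carry the lower share of *Eln* *Col14a1* cells there. Within *Eln* *Col14a1* cells (53.9% and 62.4%) and *Fmod* *Acan* *Col11a1* cells (15.7% and 24.2%), *Sfrp1* was found more widely in the *Smo* cKO. Its shares were close in *Tnc* *Inhba* cells (14.06% and 14.15%) and in cells outside every group (36.2% and 37.99%). In *Tnmd* *Scx* cells they were 21.25% and 9.48%. *Sfrp4* (23.8% and 23.3%), *Frzb* (0.85% and 0.63%), *Dkk2* (4.73% and 4.20%), *Dkk3* (13.5% and 14.4%) and *Wnt5a* (5.97% and 6.31%) had intervals of the difference that held 0 in 1 random draw. *Wnt11* was found in 1.28% and 0.81%, but this is the same draw. Over all draws the expected shares were 1.08% and 1.16% for *Wnt11*, so no order is read from it. The expected shares were 1.68% and 0.70% for *Rspo3* and 0.13% and 0.46% for *Wif1*. They lay further apart than in the draw for *Dkk2* (5.06% and 3.95%), *Wnt5a* (5.86% and 6.66%) and *Sfrp4* (24.0% and 23.1%). For *Dkk3* (13.5% and 13.7%) and *Frzb* (0.76% and 0.73%) they lay closer together.

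**Figure D4:**
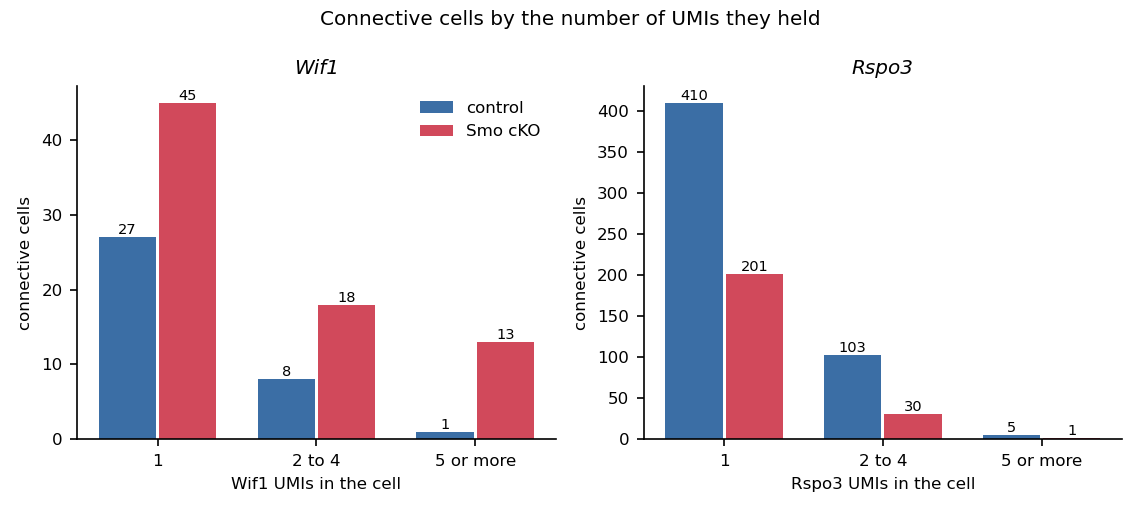
Number of connective cells (y axis, from 0) that held 1, 2 to 4, or 5 or more UMIs (x axis) of *Wif1* (left) and *Rspo3* (right) in the control (blue) and *Smo* cKO (red) library. For *Wif1*, 13 *Smo* cKO cells against 1 control cell held 5 or more UMIs, whereas for *Rspo3* most cells in both libraries held 1.

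The methods of the study set an upper limit of 2000 detected genes, which 58.0% of the cells exceed in the control library, and 59.4% in the other. Under that limit 1653 and 942 connective cells were left. *Wif1* (log2 ratio 2.83) and *Rspo3* (-1.18) remained past 1.5-fold, but *Frzb* (0.96) joined the higher genes, and *Dkk2* (-1.23), *Sfrp2* (-0.70) and *Wnt11* (-0.59) the lower ones. In *Eln* *Col14a1* cells *Rspo3* was then at -0.82 in place of -1.45, and in *Tnc* *Inhba* cells it had too few UMIs to be counted. The share of all genes past 1.5-fold under this limit was not computed.

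The third question was how the rest of the pathway lay between the libraries. Of 74 further Wnt pathway genes, 53 had at least 50 UMIs in connective cells, of which 4 were past 1.5-fold higher and 5 past 1.5-fold lower in the *Smo* cKO library, against 4.98% and 4.1% of all genes. The lists below are short and were chosen with earlier results of these data known, and the same shares are their background. Their median log2 ratio was -0.08, against 0.01 over all genes.

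Among other ligands, 9 of 17 were counted, 3 were past the fold higher (4.98% over all genes) and none lower, with a median of 0.48. *Wnt2* had 416 and 696 UMIs (0.74, 0.56 to 0.92), *Wnt7b* 68 and 118 (0.79, 0.35 to 1.24) and *Wnt2b* 20 and 38 (0.92, 0.10 to 1.78). *Wnt4*, the other ligand with most UMIs, was at 12.4 and 17.8 CPM (0.52), and *Wnt9a* at 7.58 and 8.05 CPM. Like the Sfrp genes, *Wnt4* was highest in *Eln* *Col14a1* cells, at 34.2 and 59.2 CPM.

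Among other secreted modulators, 2 of 5 counted genes were past the fold lower (4.1% over all genes) and none higher. They were the R-spondin *Rspo2* (224 and 123 UMIs, -0.87, -1.20 to -0.55) and *Notum* (208 and 130 UMIs, -0.68, -1.01 to -0.36), an enzyme that removes the lipid from Wnt proteins. *Rspo1* was at 8.95 and 6.27 CPM (-0.51), so the 3 R-spondins that were counted, *Rspo3* included, all had lower values. *Cthrc1*, which binds Wnt and Frizzled proteins, was at 854 and 1066 CPM (0.32), and *Draxin* at 2.24 and 1.81 CPM. *Dkk1* was read by only 6 and 3 UMIs and *Sost* by 1 and 0.

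For secretion, *Wls*, which carries Wnt proteins to the surface, was at 141 and 133 CPM and *Porcn*, which attaches their lipid, at 8.04 and 5.54 CPM (-0.54). Of 20 counted receptors and co-receptors, *Fzd6* was past the fold higher (235 and 375 UMIs, 0.67). *Fzd9* (190 and 84 UMIs, -1.18), *Ror1* (650 and 407, -0.68) and *Fzd1* (3652 and 2399, -0.61) were past it lower. *Ryk* (107 and 96.5 CPM), *Lrp6* (47.3 and 38.8 CPM) and *Kremen1* (35.3 and 34.7 CPM) had most UMIs of the list.

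None of the 10 counted transducers passed 1.5-fold, among them *Csnk1a1* (260 and 263 CPM), *Ctnnb1* (132 and 118 CPM), which encodes beta-catenin, and *Gsk3b* (95.8 and 97.7 CPM). Nor did any of 7 counted beta-catenin targets, with a median of 0.04. *Ccnd1* was at 18.8 and 27.0 CPM (0.52), *Myc* at 37.6 and 38.7 CPM and *Bambi* at 15.1 and 15.8 CPM. *Axin2*, often read as a measure of beta-catenin signaling and named here after its values were seen, had 291 and 208 UMIs (-0.49, -0.75 to -0.23).

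**Figure D5:**
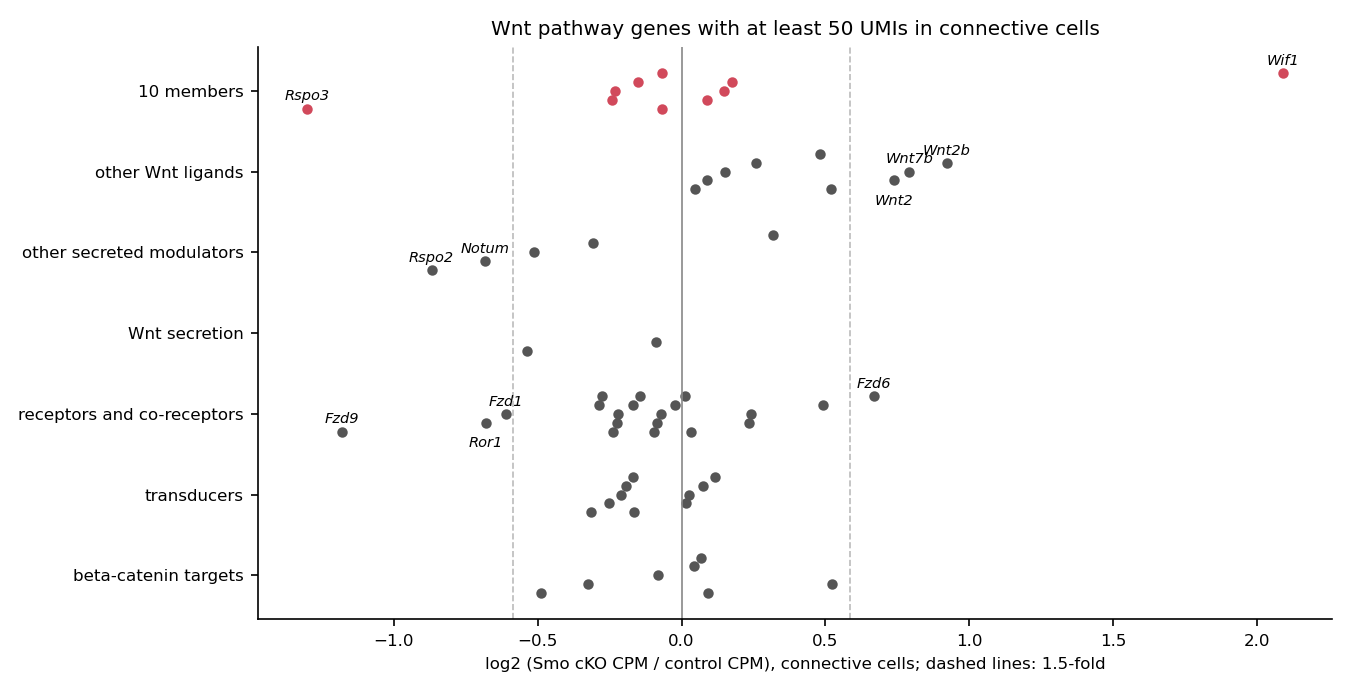
Log2 ratio of *Smo* cKO to control CPM in connective cells (x axis) for the 10 genes (red) and for the 53 counted genes of 6 Wnt pathway lists (gray), 1 point a gene; dashed lines mark 1.5-fold and named genes lie beyond them. All 9 points of the other Wnt ligands lie at or right of 0, and no transducer or beta-catenin target crosses a line.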

How the data were processed

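The authors aligned reads to mm10 with Cell Ranger 3.0.2, per the labels, and deposited raw UMI counts per gene and barcode. Cells with at least 200 detected genes and under 10% of UMIs on 13 mt- genes were kept, with no upper limit. Each cell took the class of its highest relative marker score (mean of ln(1 + UMIs per 10000) over a list, divided by that of the 10 top cells, or of the 100 top cells for connective groups), given at least 2 detected markers and a lead of 0.1; 815 and 852 cells had no class. No doublet caller was run. CPM are summed UMIs over summed depth with exact Poisson intervals, shares have Clopper-Pearson intervals, and ratios exact conditional intervals, all at 95%. Weighted ratios have normal intervals. With 1 library per genotype there was no test. Genes counted for ratios had at least 50 UMIs in both libraries together. For detected shares each cell was thinned to 2000 UMIs without replacement. Barcodes shared by the libraries were left in unless stated.

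The 10 genes, the marker and pathway lists and the alternatives were chosen with earlier results of these data known. Genes named beside the 10 are, for each list, those past 1.5-fold and the 3 with most UMIs, and for each member the 3 with the most similar pattern among genes with at least 200 UMIs. Gate markers and the 10 genes were left out of that search. *Axin2*, *Dkk1* and *Sost* fall outside this rule and were named after their values were seen. Coordinates come from GENCODE vM21 (GRCm38), in which 30934 of 31054 features were matched, and promoter sequences from RefSeq (GRCm38.p6). Where a RefSeq window ran into the GENCODE gene, only the bases before the gene were searched and shown. The ratio script was tested on simulated counts. Python 3.11.15, numpy 2.4.6, scipy 1.17.1, pandas 2.3.3 and matplotlib 3.10.9 were used.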

Additional observations from a re-analysis of the deposited data

Results flagged for a closer look

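For 6 of the 10 genes the ratio between the libraries had opposite signs in different connective groups, with counting intervals that did not reach 0. These differences between groups were not tested, since each library is 1 sample. The share of all genes that meet the same rule was not computed, so the count says nothing particular about the 10 genes. The ratios were also not centered on the median of all genes, which was 0.12 in *Eln* *Col14a1* cells and -0.01 in *Tnc* *Inhba* cells. *Wnt5a* had a log2 ratio of 0.51 in *Eln* *Col14a1* cells and -0.083 in *Tnc* *Inhba* cells. *Sfrp1* was at 0.44, 0.16 and 0.45 in *Eln* *Col14a1*, *Tnc* *Inhba* and *Fmod* *Acan* *Col11a1* cells and at -1.19 in *Tnmd* *Scx* cells. *Sfrp2* was at 0.23 in *Fmod* *Acan* *Col11a1* cells and -0.26 in *Eln* *Col14a1* cells. *Frzb* was at 0.47 in *Eln* *Col14a1* cells, with an interval that starts at 0.00, and -1.16 in *Fmod* *Acan* *Col11a1* cells. *Dkk2* was at 0.29 and 1.22 in *Tnc* *Inhba* and *Fmod* *Acan* *Col11a1* cells and -0.31 in *Eln* *Col14a1* cells. *Dkk3* was at 0.37 in *Eln* *Col14a1* cells and -0.18 in *Fmod* *Acan* *Col11a1* cells.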

How the results depend on the processing

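The log2 ratio of *Wif1* stayed between 1.95 and 2.83 over the 12 alternatives in which it could be counted. That of *Rspo3* stayed between -1.34 and -1.15 over its 12 alternatives, and both were past 1.5-fold in each. The lowest *Wif1* value came from all cells of the library, an alternative not limited to connective cells. No paired analysis was possible because each genotype is 1 library and the labels share no replicate number. For the alternatives the share of all genes past 1.5-fold was not computed, so the counts below have no background of their own. The limit of 2000 detected genes moved most counts. It gave 2 members higher and 4 lower in connective cells (main 1 and 1), 2 and 3 with fixed makeup (1 and 1), 1 and 3 in *Eln* *Col14a1* cells (0 and 1), 2 and 0 in *Tnc* *Inhba* cells (0 and 1), 1 and 0 in *Fmod* *Acan* *Col11a1* cells (3 and 1), and 3 pathway genes lower (5). The 1653 and 942 connective cells left had medians of 4604 and 3353 UMIs. Connective cells with no hematopoietic marker UMI numbered 283 and 80, at medians of 711 and 586.5 UMIs, and gave 0 members higher and 2 lower (*Sfrp1* at -0.94 and *Sfrp2* at -0.70), since *Wif1* and *Rspo3* had too few UMIs there. The stricter gate gave 1 member higher in *Eln* *Col14a1* cells and 0 lower in *Fmod* *Acan* *Col11a1* cells. Counting genes with at least 20 UMIs gave 1 member higher in *Tnc* *Inhba* cells. With genes of 1 UMI or more, 1 was higher in *Eln* *Col14a1* and 1 in *Tnc* *Inhba* cells, 2 were lower in *Fmod* *Acan* *Col11a1* cells, and 9 pathway genes were higher and 9 lower. Thinned to 1000 UMIs, 6 members had a higher detected share in *Smo* cKO connective cells, against 3 at 2000 UMIs and 4 for the shares expected over all draws (added after seeing the data). The cause of these moves was not tested. Ratios of small size changed sign in connective cells under some alternatives, with *Sfrp4* in 3, *Wnt11* and *Dkk3* in 2 each and *Frzb* in 1. Leaving out shared barcodes, their shallower copies (added after seeing the data) or the 5 cells richest in a gene (also added) changed no count of members.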
